A study of Mus musculus with 6 samples.

Results

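Aminoacyl-tRNA synthetases are the enzymes that attach each amino acid to its tRNA. Their mRNAs were measured in 4-cell mouse embryos that had received Son siRNA or were controls. The genes were chosen by symbol from a list of 36 synthetases, of which 20 encode cytosolic and 16 encode mitochondrial enzymes. All 36 had a single row among the 46072 genes of the deposited count tables, and none was left out by the filter on low counts.

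The Son siRNA embryos had been microinjected as zygotes. Son encodes an RNA-binding protein of nuclear speckles with a role in pre-mRNA splicing. There were 3 libraries of Son siRNA embryos and 3 of controls, prepared by Smart-Seq2, which copies polyadenylated RNA along its whole length and keeps no strand information. Control injection, mouse strain, siRNA sequence and embryos per library are not stated in the labels. Separate litters are not stated either, and p-values therefore reflect only how far these libraries scatter, which may be technical.

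A synthetase activates its amino acid with ATP and transfers it to the matching tRNA, which then carries it to the ribosome. Most amino acids have separate cytosolic and mitochondrial enzymes, both encoded in the nucleus, while Gars and Kars serve both compartments and are counted here with the cytosolic enzymes. In mammals the cytosolic enzymes Dars, Eprs, Iars, Kars, Lars, Mars, Qars and Rars assemble with the scaffold proteins Aimp1, Aimp2 and Eef1e1 into the multisynthetase complex. The 4-cell embryo lies just after the major activation of its own genome and still holds mRNA inherited from the oocyte.

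Son checked the labels. It had 41, 28.0 and 25.1 CPM (counts scaled to a common library size with the TMM factor) in Son siRNA libraries 1 to 3, against 249, 322 and 332 CPM in control libraries 1 to 3. The log2 fold change of Son siRNA minus control was -3.26 (SE 0.272, adjusted p = 0.00991, edgeR quasi-likelihood test with Benjamini-Hochberg adjustment), and p was 0.1 in a two-sided exact permutation test, the smallest that 3 libraries against 3 allow. Total estimated counts lay between 104634855 and 114892490 in Son siRNA libraries and between 107996833 and 118865650 in controls. Rank correlations of gene counts were 0.914 to 0.919 among Son siRNA libraries, 0.889 to 0.891 among controls and 0.876 to 0.897 across groups. Each of 10 oocyte and embryo markers reached 1 CPM in at least 1 library, Zar1 only in control 2 (1.66 CPM). Of the 10 markers, 4 were separated between groups with no overlap of libraries, where 23.7% of all genes tested were. Son siRNA was below for Pou5f1 and Tead4 and above for Gdf9 and Zp3, none past the edgeR threshold. None of 8 cumulus cell markers reached 1 CPM, and 4 of these (Cd44, Fshr, Foxl2 and Inha) were at 0 in every library. Of 4 blood markers, Hba-a1 had 6.78, 6.65 and 6.07 CPM in Son siRNA libraries and 9.80, 4.14 and 6.77 CPM in controls, Lyz2 reached at most 1.37 CPM, and Hbb-bs and Ptprc were at 0. The share of counts from mitochondrially encoded genes was 13.8%, 17.5% and 13.2% in Son siRNA libraries and 15.3%, 9.79% and 16% in controls, so control 2 was the lowest.

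Promoter sequences are shown for the synthetase genes that carry the letters TGATGNAA, which the stress factor ATF4 and C/EBP proteins read as an amino acid response element. Many cytosolic synthetase genes are known ATF4 targets. RefSeq windows on GRCm38.p6, from 250 bases before to 50 after the start site, were found by symbol or synonym for 27 of the 36 genes. The letters occurred on either strand in 5 of 13 cytosolic genes (38.5%), in 0 of 14 mitochondrial genes and in 4.51% of the 27025 genes in the table. A match describes letters in a window and does not show a bound site. In the 30 bases around the match nearest the start site of each gene, written 5′ to 3′ on the strand that carries it, capitals mark the letters searched for:
Aars, chr8:111033840-111033869, minus strand: tcagagcgctcTGATGAAAagtgacccgct
Gars, chr6:55037960-55037989, minus strand: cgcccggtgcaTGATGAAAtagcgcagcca
Iars, chr13:49682126-49682155, minus strand: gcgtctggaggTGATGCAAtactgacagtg
Tars, chr15:11399655-11399684, plus strand: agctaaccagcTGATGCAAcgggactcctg
Yars, chr4:129189895-129189924, plus strand: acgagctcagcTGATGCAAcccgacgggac

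The levels of the synthetases spanned several orders of magnitude per length, and Rars and Kars led in both groups. Levels between genes were compared as CPM per kilobase of the longest protein-coding transcript. Rars, the arginyl enzyme, was first with 262 ± 45.0 CPM per kb in Son siRNA libraries and 410 ± 61.3 in controls (SD, n = 3 each). Kars, the lysyl enzyme, followed with 79.2 ± 3.25 in Son siRNA libraries and 93.0 ± 26.9 in controls. Eprs, which joins the glutamyl and prolyl activities in a single protein, had 59.5 ± 2.92 in Son siRNA libraries and 47.6 ± 7.25 in controls. Nars, the asparaginyl enzyme, took place 4 in both groups with 39.3 ± 1.84 CPM per kb in Son siRNA libraries and 45.8 ± 2.36 in controls. Per kilobase of all annotated exons in place of that transcript, Rars, Kars and Nars were the first 3 in both groups, and Eprs had 16.1 CPM per kb in Son siRNA libraries and 12.9 in controls.

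Most mitochondrial enzymes stood lower in the order by longest transcript, with Cars2 and Wars2 the highest of them. Cars2, the mitochondrial cysteinyl enzyme, had 19.7 ± 2.97 CPM per kb in Son siRNA libraries and 24.9 ± 6.38 in controls. Wars2, the mitochondrial tryptophanyl enzyme, took place 16 of 36 in Son siRNA libraries with 7.05 ± 3.60 CPM per kb and place 9 in controls with 24.5 ± 3.36. Per kilobase of all annotated exons, Wars2 took places 15 in Son siRNA libraries and 6 in controls, and Cars2 took places 16 in Son siRNA libraries and 15 in controls. At the low end, Vars2 had 0.0837 ± 0.0467 and Aars2 0.0924 ± 0.0502 CPM per kb in Son siRNA libraries, against 0.233 ± 0.0809 for Vars2 and 0.153 ± 0.0902 for Aars2 in controls. On the assumption that 4 deposited units stand for 1 read pair, Vars2 rested on 4.00 to 17.5 read pairs per Son siRNA library and 17 to 34 per control. Vars, the cytosolic valyl enzyme, was likewise thinly covered, with 10.2 to 31 read pairs in Son siRNA libraries and 0 to 106 in controls, where the 0 of control 3 allows up to 0.125 CPM. In CPM, 19 of the 36 reached 20 in at least 1 group, 15 cytosolic and 4 mitochondrial.

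**Figure D1:**
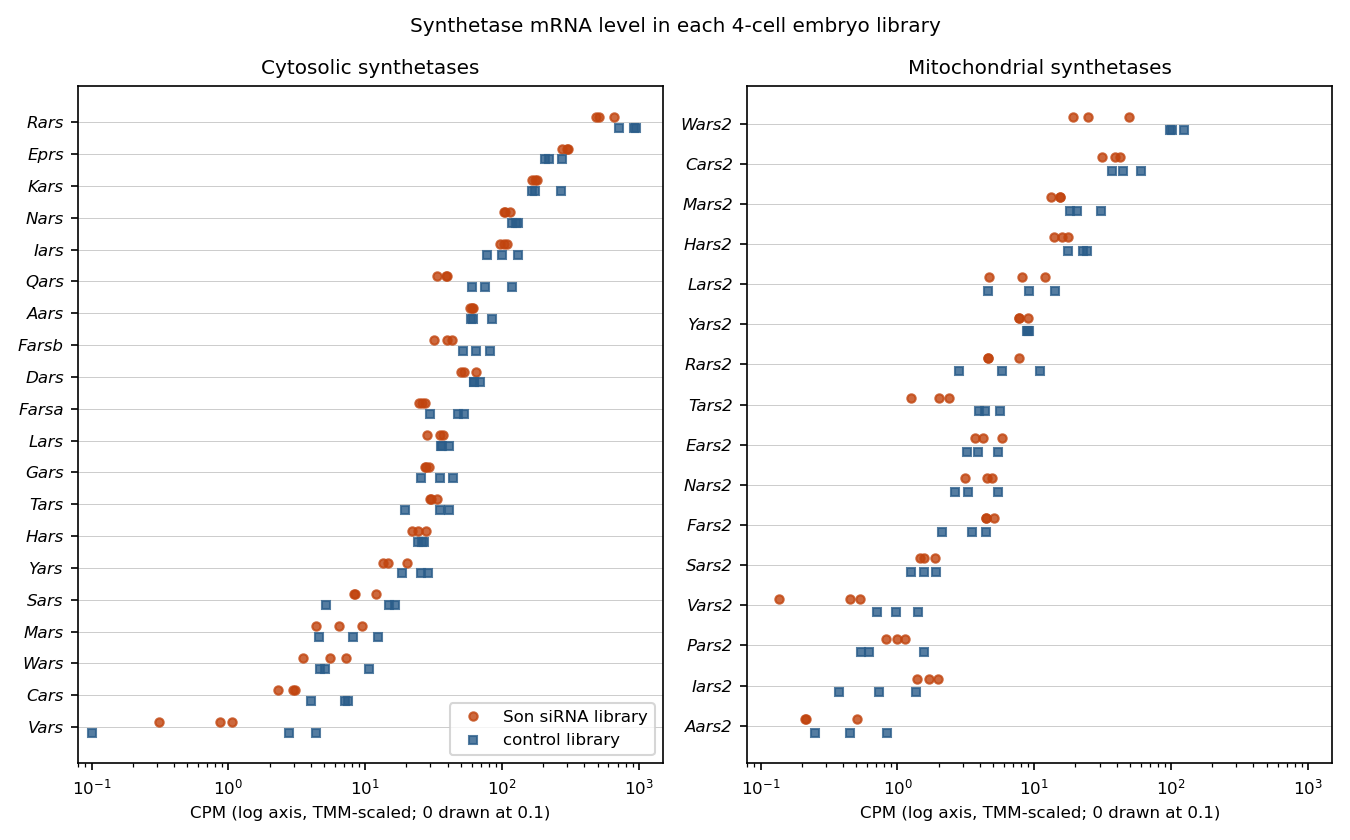
Level of each synthetase in each library, in CPM on a log axis, with Son siRNA libraries as circles above and control libraries as squares below each line. Circles and squares of Wars2, Qars, Farsb, Rars, Cars and Tars2 do not overlap, while those of Aars, Iars, Tars and Hars do.

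None of the 36 synthetases passed the test between Son siRNA and control embryos, in either direction. By edgeR's quasi-likelihood test at an adjusted p of 0.05, 0 were lower and 0 higher, where 0.989% of the 17788 genes tested were called (0.899% lower and 0.0899% higher). At an unadjusted p under 0.05, 7 of the 36 were lower and 0 higher, against 14.7% of all genes at that level (8.86% lower and 5.88% higher). These 7 were the cytosolic Qars, Farsb, Rars, Cars and Farsa and the mitochondrial Wars2 and Tars2. Of the genes that reached 20 CPM in a group, 5 of 19 synthetases and 18.5% of all 4892 were lower at that level. DESeq2 called 4 synthetases lower (Cars, Qars, Tars2 and Wars2) and 0 higher, where it called 7.63% of its 19176 genes (4.74% lower and 2.89% higher). Of those at 20 CPM, DESeq2 called 2 of 19 synthetases lower (Qars and Wars2), where it called 9.83% of all such genes lower.

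Estimates below 0 were the majority. The log2 fold change was below 0 for 28 of 36 synthetases (77.8%), 18 of 20 cytosolic and 10 of 16 mitochondrial, against 48.7% of all genes. Of the genes that reached 20 CPM, 17 of 19 synthetases (89.5%) and 60.7% of all 4892 were below 0. With counts scaled by library totals alone, the median of all genes moved to 0.31 on the log2 scale and 18 of the 36 estimates were below 0. With TMM scaling the median log2 fold change was -0.27 over all synthetases, -0.31 over the cytosolic and -0.20 over the mitochondrial enzymes, beside 0.02 over all genes, and with library totals alone these medians were 0.00, -0.05 and 0.06 beside 0.31. Class I enzymes, whose catalytic fold is the Rossmann type, had a median of -0.33 over 18 genes, and class II enzymes, built on an antiparallel sheet, had -0.22 over 17. Eprs holds an activity of each class and was left out of both. All values are per library of whole embryos and are relative to the other genes of that library, so they give no amount of RNA per cell or embryo.

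For 10 of the 36 synthetases each Son siRNA library lay below each control, and for 3 (Eprs, Fars2 and Iars2) each lay above. Over all genes tested, 23.7% were separated in this way, 11.6% with Son siRNA below and 12.1% with Son siRNA above. Among genes that reached 20 CPM, 7 of 19 synthetases (36.8%) and 21% of all 4892 were separated with Son siRNA below. Spread between libraries was larger in controls: the SD of log2 CPM was higher among controls than among Son siRNA libraries for 28 of 36 synthetases, with medians of 0.197 in Son siRNA libraries and 0.380 in controls. The same held for 12551 of the 17788 genes.

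**Figure D2:**
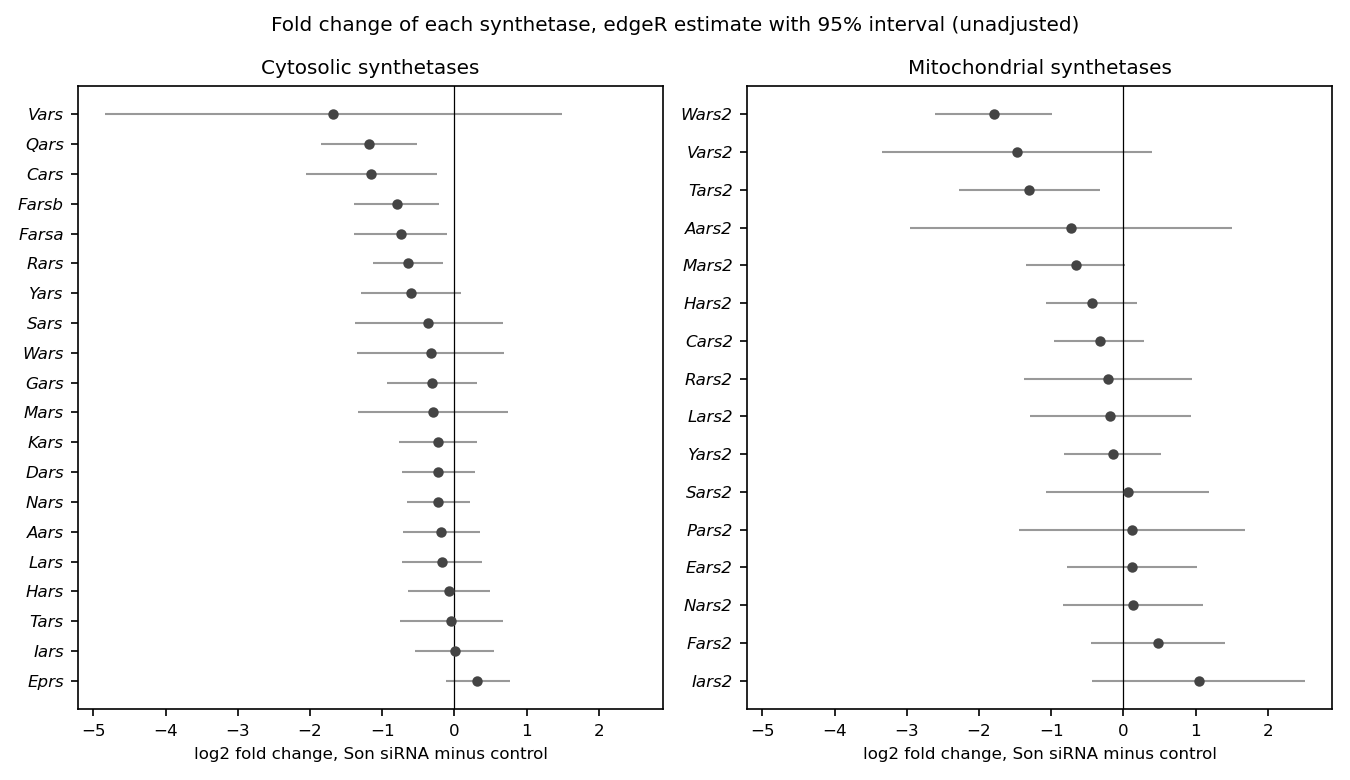
Log2 fold change of each synthetase, Son siRNA minus control, as the edgeR estimate with its unadjusted 95% interval. Intervals of Qars, Cars, Farsb, Farsa, Rars, Wars2 and Tars2 lie below 0 and the others cross it, with no adjustment for the number of genes tested.

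Of the cytosolic enzymes, Qars had the smallest p. Qars attaches glutamine and is a member of the multisynthetase complex (ENSMUSG00000032604, chromosome 9 from 108507706 to 108515941, GRCm38). It had 39.8, 39.1 and 33.4 CPM in Son siRNA libraries, against 75.6, 119 and 60.2 CPM in controls. Each Son siRNA library was below each control, and control 2 was the highest of all. The log2 fold change was -1.18 (SE 0.293, 95% interval -1.85 to -0.52), and it did not pass the edgeR threshold (unadjusted p = 0.00292, adjusted p = 0.102), although DESeq2 called it lower.

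Farsb and Farsa encode the beta and alpha subunits of the cytosolic phenylalanyl enzyme, and the estimates of both were below 0 by similar amounts. Farsb had 31.8, 42.8 and 39.3 CPM in Son siRNA libraries, against 81.9, 64.2 and 52.2 CPM in controls. Farsa had 27.5, 25.8 and 24.6 CPM in Son siRNA libraries, against 47.9, 52.9 and 29.8 CPM in controls. For both subunits all Son siRNA libraries lay under all controls, and control 3 lay nearest to them. Neither passed edgeR's quasi-likelihood test, at -0.80 log2 units (SE 0.262, adjusted p = 0.196) for Farsb and -0.74 (SE 0.285, adjusted p = 0.265) for Farsa. The ratio of the subunits per kilobase, Farsa over Farsb, was 0.962, 0.674 and 0.698 in Son siRNA libraries and 0.651, 0.918 and 0.637 in controls, so the groups overlapped. Of the exonic bases of Farsb, 9.47% overlap Sgpp2, and reads there could not be assigned by strand.

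Rars was the most abundant synthetase and the next by p. It had 513, 661 and 483 CPM in Son siRNA libraries, against 951, 715 and 925 CPM in controls. The highest Son siRNA library came close to the lowest control without reaching it. Rars differed by -0.64 on the log2 scale (SE 0.213, 95% interval -1.13 to -0.16, edgeR unadjusted p = 0.0144, adjusted p = 0.200).

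Cars, the cytosolic cysteinyl enzyme, was scarce. It had 3.06, 2.96 and 2.30 CPM in Son siRNA libraries, against 7.44, 7.09 and 3.99 CPM in controls. The groups did not overlap, and control 3 was again nearest. Its estimate was -1.15 on the log2 scale (SE 0.403), which DESeq2 called lower and edgeR did not (adjusted p = 0.223).

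The remaining 15 cytosolic enzymes had unadjusted p-values between 0.0823 (Yars) and 0.977 (Iars). The estimate of Yars, the tyrosyl enzyme, was -0.60 (SE 0.306), and its groups overlapped. Vars had the estimate farthest from 0 among the cytosolic enzymes, -1.68 (SE 1.40), but its controls read 4.39, 2.79 and 0 CPM and the interval was too wide to place it; without control 1 the estimate was -0.90. Nars was the only enzyme besides those named above, among the cytosolic ones, whose Son siRNA values all lay below the controls, at 106, 114 and 104 CPM in Son siRNA libraries against 119, 127 and 131 CPM in controls (log2 fold change -0.22, edgeR adjusted p = 0.670).

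Eprs was the exception in direction. It had 297, 276 and 303 CPM in Son siRNA libraries, against 205, 273 and 222 CPM in controls. The Son siRNA libraries lay above the controls, with control 2 close beneath them. Its estimate of 0.32 on the log2 scale (SE 0.198) did not pass (edgeR adjusted p = 0.512). Of the other cytosolic enzymes only Iars had an estimate at or above 0 (0.01), and Tars, the threonyl enzyme (-0.04), and Hars, the histidyl enzyme (-0.07), were close to it.

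The enzymes of the multisynthetase complex did not stand apart from the other cytosolic enzymes in their medians. The median log2 fold change was -0.23 over the 8 complex enzymes, -0.34 over the 12 outside it and -0.54 over the 3 scaffold proteins. Within the complex, estimates ran from -1.18 for Qars to 0.32 for Eprs. The summed level of the 8 complex enzymes was 1220, 1350 and 1190 CPM in Son siRNA libraries and 1590, 1600 and 1610 CPM in controls. Without Rars it was 709, 687 and 710 CPM in Son siRNA libraries and 635, 887 and 684 CPM in controls, and the groups overlapped. Scaffold sums were 134, 211 and 164 CPM in Son siRNA libraries and 244, 211 and 200 CPM in controls, so the scaffold groups overlapped.

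**Figure D3:**
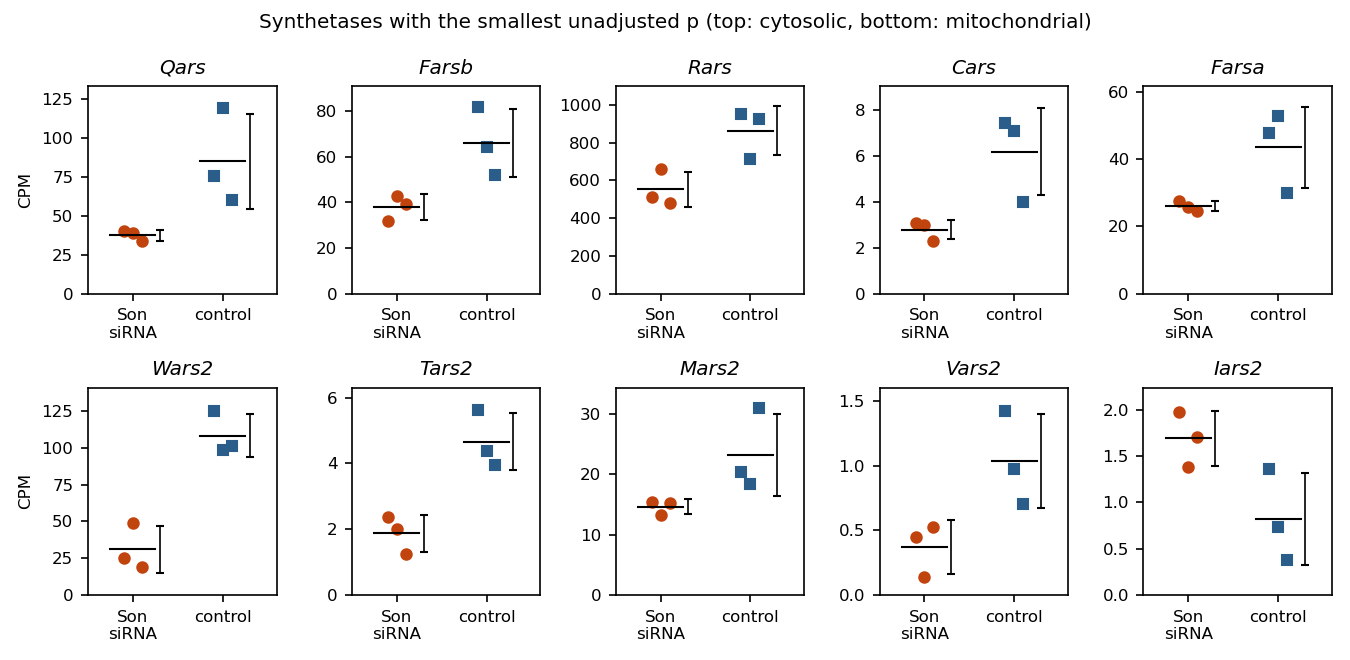
CPM per library of the 5 cytosolic (top) and 5 mitochondrial (bottom) synthetases with the smallest unadjusted p, with the mean as a line and the SD as a bar (n = 3 each). Son siRNA points lie below the control points in every panel except Iars2, where they lie above, and none of the 10 passed the adjusted threshold.

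Among the mitochondrial enzymes and among all 36, Wars2 was nearest to the threshold. Wars2 attaches tryptophan in mitochondria (ENSMUSG00000004233, chromosome 3 from 99141068 to 99239186, GRCm38), and no exonic base of it overlaps another gene. It had 24.8, 49.2 and 19.3 CPM in Son siRNA libraries, against 125, 98.7 and 101 CPM in controls. The groups did not overlap, and Son siRNA library 2 was the highest of its group. The mean was 31.1 ± 15.9 CPM in Son siRNA libraries and 108 ± 14.8 CPM in controls (SD, n = 3 each), or 28.7% of the control mean. On the log2 scale the difference was -1.80 (SE 0.359, 95% interval -2.61 to -0.99, edgeR unadjusted p = 0.000723, adjusted p = 0.0580). It passed in 3 of 15 alternative settings, with adjusted p between 0.000195 (DESeq2) and 0.325 (without Son siRNA library 1).

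Tars2, the mitochondrial threonyl enzyme, had 2.36, 2.02 and 1.26 CPM in Son siRNA libraries, against 5.62, 4.38 and 3.96 CPM in controls. Its groups did not overlap. Its estimate was -1.31 on the log2 scale (SE 0.432, edgeR unadjusted p = 0.0143, adjusted p = 0.199), and DESeq2 called it lower.

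Mars2, the mitochondrial methionyl enzyme, had 15.4, 13.2 and 15.3 CPM in Son siRNA libraries, against 20.4, 18.3 and 30.9 CPM in controls. Vars2, the mitochondrial valyl enzyme, had 0.446, 0.137 and 0.529 CPM in Son siRNA libraries, against 1.42, 0.977 and 0.706 CPM in controls. For both, all Son siRNA libraries lay below all controls. On the log2 scale the estimates were -0.66 (SE 0.303, edgeR adjusted p = 0.350) for Mars2 and -1.48 (SE 0.829, edgeR adjusted p = 0.466) for Vars2, and neither passed.

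Iars2, the mitochondrial isoleucyl enzyme, had 1.98, 1.38 and 1.71 CPM in Son siRNA libraries, against 1.36, 0.731 and 0.374 CPM in controls. Here the Son siRNA libraries were the higher, though siRNA library 2 and control 1 nearly met. Its estimate of 1.04 on the log2 scale (SE 0.653) did not pass (edgeR adjusted p = 0.524). Of the exonic bases of Iars2, 24.2% overlap Rab3gap2 or the antisense gene 2010103J01Rik, and the part of those reads in the value was not tested. Fars2, the mitochondrial phenylalanyl enzyme, was the other whose Son siRNA values all lay above the controls, at 4.47, 5.06 and 4.46 CPM in Son siRNA libraries against 4.43, 2.12 and 3.51 CPM in controls (log2 fold change 0.48, edgeR adjusted p = 0.663). Control 1 of Fars2 nearly met the Son siRNA values, and 10.7% of the exonic bases of Fars2 overlap Nrn1 or Lyrm4. The other 10 mitochondrial enzymes had estimates between -0.73 (Aars2, -0.17 without control 1) and 0.13 (Nars2) and unadjusted p-values of 0.149 or more.

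Summed over enzymes, both compartments read lower in Son siRNA libraries with TMM scaling, and the cytosolic groups overlapped without it. A single gene carried much of each difference. The cytosolic sum was 1560, 1720 and 1540 CPM in Son siRNA libraries, against 2040, 2090 and 2010 CPM in controls, or 78.4% of the control mean. Without Rars it was 1050, 1060 and 1050 CPM in Son siRNA libraries, against 1090, 1370 and 1080 CPM in controls, or 88.9%. The mitochondrial sum was 143, 150 and 131 CPM in Son siRNA libraries, against 266, 245 and 227 CPM in controls, or 57.5%. Wars2 made up 17.3%, 32.9% and 14.7% of the mitochondrial sum in Son siRNA libraries and 47.0%, 40.3% and 44.4% in controls. Without Wars2 the mitochondrial sum was 119, 100 and 112 CPM in Son siRNA libraries, against 141, 146 and 126 CPM in controls, or 80.1%. The log2 ratio of the mitochondrial over the cytosolic sum was -3.44, -3.52 and -3.55 in Son siRNA libraries and -2.94, -3.09 and -3.15 in controls. As a share of all counts, with no TMM factor, the cytosolic enzymes took 0.181%, 0.176% and 0.177% in Son siRNA libraries and 0.175%, 0.220% and 0.163% in controls. The mitochondrial enzymes took 0.0166%, 0.0153% and 0.0151% in Son siRNA libraries and 0.0229%, 0.0258% and 0.0184% in controls, so for them the groups stayed apart. This separation rested on Wars2, with 3007, 5754 and 2559 counts in Son siRNA libraries and 12043, 11207 and 9704 in controls. With Wars2 taken out of these unscaled shares, the groups overlapped. No test was run on these sums, because they are scores over genes chosen with earlier results known.

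**Figure D4:**
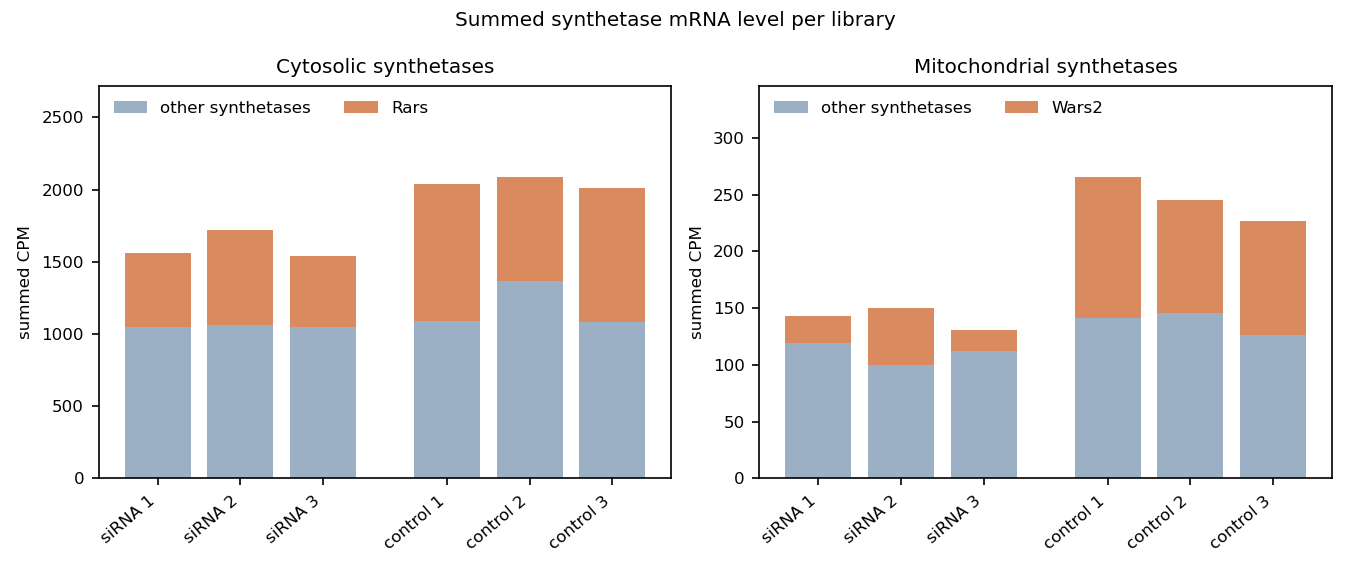
Summed TMM-scaled CPM of the cytosolic (left) and mitochondrial (right) synthetases in each library, with Rars and Wars2 drawn apart from the other enzymes on axes that start at 0. The mitochondrial sums are 131 to 150 CPM in Son siRNA libraries and 227 to 266 CPM in controls, and most of the gap is the Wars2 segment.

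For most amino acids, the balance between the mitochondrial and the cytosolic enzyme overlapped between the groups. The 4 exceptions are given as ratios of levels per kilobase. No share of separated ratios was computed over other genes, and of single genes tested 23.7% were separated. The ratio of Vars2 over Vars was not computed. Wars2 over Wars was 4.56, 4.37 and 2.25 in Son siRNA libraries and 15.8, 5.98 and 13.8 in controls, so the mitochondrial tryptophanyl mRNA exceeded the cytosolic one in all 6 libraries. Wars itself, at 3.49, 7.22 and 5.51 CPM in Son siRNA libraries against 5.08, 10.6 and 4.70 CPM in controls, overlapped. Tars2 over Tars was 0.0868, 0.0830 and 0.0528 in Son siRNA libraries and 0.357, 0.153 and 0.120 in controls.

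The cysteinyl and phenylalanyl enzymes had the opposite order. Cars2 over Cars was 23.3, 17.8 and 28.8 in Son siRNA libraries and 10.1, 14.5 and 15.7 in controls. The Cars2 mRNA itself had 42.1, 31.2 and 39.2 CPM in Son siRNA libraries, against 44.4, 60.6 and 36.8 CPM in controls, and overlapped between groups, while Cars did not. Fars2 over Farsa was 0.140, 0.168 and 0.156 in Son siRNA libraries and 0.0796, 0.0345 and 0.101 in controls. These ratios carry no test and rest on low counts for Cars, Tars2, Fars2 and Wars.

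No partner of charging passed, on a list of 16 genes analysed. The list comprises the scaffold proteins, editing enzymes, the methionyl-tRNA formyltransferase Mtfmt, the makers of mitochondrial glutaminyl-tRNA and selenocysteinyl-tRNA, and the synthetase-like gene Tarsl2. By edgeR 0 were lower and 0 higher, and the median log2 fold change was 0.07, beside 0.02 over all genes. The unadjusted edgeR p was under 0.05 for 0 lower and 1 higher gene, against 8.86% and 5.88% of all genes. DESeq2 called 0 lower and 1 higher (Gatc), against 4.74% and 2.89% of its genes.

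Gatc, a subunit of the amidotransferase that converts misacylated glutamyl-tRNA to glutaminyl-tRNA in mitochondria, had 14.5, 13.6 and 13.1 CPM in Son siRNA libraries, against 7.30, 6.22 and 7 CPM in controls. The groups did not overlap, and the log2 fold change was 1.01 (SE 0.292, edgeR unadjusted p = 0.00715, adjusted p = 0.145), which did not pass. The other subunits of that enzyme, Gatb and Qrsl1, had estimates of 0.42 and 0.01. Aimp1, a scaffold protein, had 17.5, 29.4 and 18.7 CPM in Son siRNA libraries, against 49.2, 27.5 and 29.8 CPM in controls, or -0.70 on the log2 scale (SE 0.338, edgeR adjusted p = 0.382). Pstk, the kinase on the way to selenocysteinyl-tRNA, had an estimate of 1.13 (SE 0.554, edgeR adjusted p = 0.387), with 58.8% of its exonic bases shared with Ikzf5, and the estimate was 0.44 without Son siRNA library 2. Aarsd1, a deacylase related to the editing domain of the alanyl enzyme, had 3.78, 7.04 and 1.03 CPM in Son siRNA libraries, against 16, 18.1 and 1.24 CPM in controls. The groups overlapped (log2 fold change -1.57, SE 0.915, edgeR adjusted p = 0.486). The estimate was -2.29 without Son siRNA library 2, and 41% of the exonic bases of Aarsd1 overlap Gm27029.

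No gene of tRNA end maturation and export passed. Of 22 tested, edgeR called 0 lower and 0 higher, and the median log2 fold change was -0.08, beside 0.02 over all genes. The unadjusted edgeR p was under 0.05 for 3 lower and 1 higher gene, against 8.86% and 5.88% of all genes. DESeq2 called 1 lower and 1 higher, against 4.74% and 2.89% of its genes. Rpp38, a protein subunit of RNase P, which trims the 5′ end of tRNA, had 35.7, 43.3 and 39.4 CPM in Son siRNA libraries, against 17.6, 15.4 and 19.0 CPM in controls (log2 fold change 1.19, SE 0.252, edgeR adjusted p = 0.0700). Pop4, another protein subunit of RNase P, had 94.2, 122 and 89.8 CPM in Son siRNA libraries, against 217, 144 and 170 CPM in controls (log2 fold change -0.80, SE 0.238, edgeR adjusted p = 0.156). Both subunits were thus separated between groups, in opposite directions. Of the 22 genes, 5 (22.7%) were separated, against 23.7% of all genes tested. For the other subunits of this RNase P on the list, Rpp21, Rpp25, Rpp30, Rpp40, Pop1, Pop5 and Pop7, the groups overlapped. Hsd17b10, a subunit of mitochondrial RNase P, had an estimate of -0.84 (SE 0.332, edgeR adjusted p = 0.280), and Xpot, the tRNA exporter, -0.51 (SE 0.220, edgeR adjusted p = 0.329).

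No gene on the list of the amino acid response passed. The list holds ATF4 and its targets outside the synthetases, and 24 of its 26 genes were tested, since Atf5 and Pck2 did not pass the filter on low counts. By edgeR 0 were lower and 0 higher, and the median log2 fold change was 0.04, beside 0.02 over all genes. The unadjusted edgeR p was under 0.05 for 1 lower and 0 higher genes, against 8.86% and 5.88% of all genes. DESeq2 called 1 lower and 0 higher, against 4.74% and 2.89% of its genes. The lower gene was Psat1, an enzyme of serine synthesis, with 384, 410 and 377 CPM in Son siRNA libraries, against 764, 694 and 748 CPM in controls (log2 fold change -0.91, SE 0.178, edgeR adjusted p = 0.0554). Phgdh, which acts earlier in the same pathway, had an estimate of -1.07 (SE 0.484, edgeR adjusted p = 0.348), Nupr1, a stress-induced transcriptional regulator, -0.62 (SE 0.290, edgeR adjusted p = 0.362), and Cebpb, a transcription factor, 1.82 (SE 0.862, edgeR adjusted p = 0.372). Without control 2 the estimate of Phgdh was -0.36. Cebpb was thinly covered, at 0.545, 0.752 and 1.05 CPM in Son siRNA libraries against 0.229, 0.255 and 0.177 CPM in controls. Its controls rested on 4.25 to 7.25 assumed read pairs, and 20.7% of its exonic bases overlap Tmem189. Atf4 itself had 197, 169 and 278 CPM in Son siRNA libraries, against 87.5, 236 and 79.4 CPM in controls, and was named for the promoter comparison. Its groups overlapped, with a log2 fold change of 0.68.

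The 5 cytosolic synthetase genes with TGATGNAA in the window, shown above, had estimates of -0.18 (Aars), -0.31 (Gars), 0.01 (Iars), -0.04 (Tars) and -0.60 (Yars). Their median was -0.18, against -0.33 for the 8 cytosolic genes whose window lacked it. The 5 with the smallest p, Qars, Farsb, Rars, Cars and Farsa, had no match where a window was found, and Rars and Cars had no window. Across the 36 synthetases the log2 fold change had a Spearman rho of -0.14 with the GC content of the coding transcript, -0.01 with its length, -0.02 with its exon number, 0.25 with the span of the gene and -0.05 with its mean level. These are descriptions over 36 genes that share the same 6 libraries.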

How the data were processed

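RNA of 4-cell embryos was sequenced in 6 Smart-Seq2 libraries, grouped and numbered as their titles say. The authors deposited 1 table of whole-number estimated counts per library, not normalized. HISAT2 2.0.5, StringTie 1.3.3b and GRCm38 were used per the submitters' processing notes, while sources used here name neither an annotation release nor a counting script. Multiples of 4 made up 26.4% to 32.4% of values between 1 and 40, little more than their share among whole numbers. The 4 units per read pair are a weak assumption from this and not a statement of the authors. All read-pair numbers given here rest on it. Counting floors (3 read pairs, 12 units) cover counting error only, since PCR copies are not independent molecules.

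Counts were tested with edgeR 4.0.16 in R 4.3.3 (filterByExpr, TMM, glmQLFit, glmQLFTest, no block, Benjamini-Hochberg over 17788 genes, threshold 0.05). CPM are TMM-scaled. DESeq2 1.42.0, other scalings and filters, counts divided by 4, the replicate block and leaving out each library were alternatives. On simulated counts for Son siRNA against control (16721 genes), 80 of 100 genes set to a 4-fold difference and 99 of 100 set to 8-fold were called, and 8 of all 187 calls were unchanged genes. The members and lists were chosen with earlier results of these data known. The text names all 36 synthetases or counts them, gives values per library for the 5 of each compartment with the smallest unadjusted p, and names up to 4 genes of each other list by the same measure. Others given per library (Nars, Eprs, Fars2, Cars2, Wars, Atf4) were added after their values were seen. Of the 46072 genes, 45223 matched GENCODE vM21 (GRCm38) by identifier, as did all 36 synthetases, and coordinates, overlaps and lengths come from it. Rpp14 has 2 rows and was not used. Of the charging partners, 1 gene is not reported here. Promoters were matched to RefSeq by symbol or, failing that, by a synonym that only 1 gene carries.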

Additional observations from a re-analysis of the deposited data

How the results depend on the processing

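Of 540 results of single synthetases under 15 alternatives, 499 kept their direction and side of the threshold, 6 passed it and 35 changed sign; the cause was not tested. DESeq2 called 909 genes lower and 555 higher, with 2 cytosolic, 2 mitochondrial and so 4 synthetases lower, 1 charging partner higher, 1 tRNA gene lower and 1 higher, and 1 amino acid response gene lower. A filter of 50 units in 3 libraries gave 245 lower and 43 higher genes, and counts divided by 4 gave 279 and 51, each with 1 synthetase lower (mitochondrial, Wars2, adjusted p = 0.0378 and 0.0306) and 1 amino acid response gene lower. No filter gave 91 lower and 9 higher. Total-count scaling gave 35 lower and 7 higher, with medians of -0.05 (cytosolic), 0.06 (mitochondrial), 0.00 (all synthetases), 0.24 (tRNA) and 0.31 (amino acid response); relative to the median of all genes, the cytosolic median was -0.37 there and -0.33 with TMM. Under it 10 synthetases reversed: Aars 0.09, Dars 0.06, Hars 0.23, Kars 0.02, Lars 0.11, Nars 0.07, Tars 0.25, Lars2 0.07, Rars2 0.05 and Yars2 0.15. Iars read 0.00 with DESeq2 size factors and without mitochondrially encoded genes, an alternative chosen after seeing the data. With the replicate block in edgeR, 0 genes were lower and 0 higher (1997 at an unadjusted p under 0.05). Son was then -3.29 (edgeR adjusted p = 0.0617) and Tars 0.02. In a separate check over 7759 genes, same-numbered libraries had correlations of -0.262, -0.305 and 0.068. The highest with another number were 0.242, 0.379 and 0.138, so no sign of pairing was seen. These values are not the rank correlations of gene counts given above. So few libraries cannot exclude a shared litter or day. Leaving out each library gave 0 to 231 lower and 0 to 84 higher genes, with 0 and 0 without any of the 3 Son siRNA libraries (1733 to 2348 at an unadjusted p under 0.05), where Son did not pass (adjusted p = 0.0648 to 0.136; log2 fold change -3.50 to -3.12 over all 6). Over the same 6, the amino acid response had 0 to 1 lower, the mitochondrial median lay at -0.37 to -0.13 and the tRNA median at -0.21 to -0.01. Synthetases whose sign changed ranged from -0.27 to 0.00 (Aars), -0.17 to 0.01 (Hars), -0.16 to 0.22 (Iars), -0.36 to 0.03 (Kars), -0.63 to 0.10 (Mars), -0.29 to 0.18 (Tars), -0.59 to 0.15 (Wars), -0.08 to 0.36 (Ears2), -0.54 to 0.27 (Lars2), -0.07 to 0.49 (Nars2), -0.14 to 0.76 (Pars2), -0.57 to 0.39 (Rars2) and -0.08 to 0.23 (Sars2). The simulated check covered only changes of 4-fold and 8-fold, and Vars, Vars2, Aars2, Iars2 and Cebpb are limited by depth.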
